A study of Mus musculus with 6 samples.

Results

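The small heat shock proteins examined here are Hspb1, Hspb2, Hspb3, Hspb6, Hspb7, Hspb8 and Cryab, 7 of 19057 genes that had a probe on the array. The members were taken by gene symbol, and the family was proposed with earlier results of this comparison known, so the p-values below describe the fit and are not independent evidence. The array carried 9 probes of these genes, and the main probe of each gene was chosen by its mean signal over all 6 arrays, the brightest being kept. Levels are therefore given as a description.

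Small heat shock proteins are chaperones that work without ATP. They share an alpha-crystallin domain, assemble into oligomers, and hold unfolding proteins until chaperones driven by ATP, such as Hsp70, refold or release them. Several of them are abundant in skeletal and cardiac muscle, where they associate with the Z-disc, with desmin filaments and with filamin C, while Hspb1 is also made by epithelia and Cryab by the lens.

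The RNA came from embryos of the outbred CD-1 stock at embryonic day 13.5, when the lower molar is an epithelial bud within condensing mesenchyme. There were 3 libraries titled tooth germ and 3 titled oral tissue, each made from tissue pooled over several embryos and measured on an Illumina bead array of 1 colour. Libraries of the same number came from the same litter, so the arrays form 3 pairs; no allele or treatment is named for either group, and per the labels the oral tissue is mandibular and holds neither tooth nor bone. The source name and tissue fields give the tooth germ to the libraries titled oral tissue, and the reverse. Groups are named here by title, and the sign of every difference turns if those other fields are right.

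Defining markers were read against the titles. Of 8 dental mesenchyme genes 5 were higher in the libraries titled tooth germ and 3 were not called, and 6 were higher with litter as a block. They were led by Inhba and Msx1 with log2 differences of 1.98 and 1.47, or 0.99 for Msx1 as the mean of its probes. Of 7 measured dental epithelium genes 4 were higher, 1 was lower and 2 were not called. The largest rises were those of Sostdc1 (0.94) and Sp6 (0.89, or 0.62 as the mean of its probes). All 6 arrays had a median signal of 7.01 on the deposited log scale and an upper quartile of 7.84, and precision is limited by having 3 arrays per tissue.

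Of the 7 members, 4 were lower and 1 was higher in titled tooth germ, and 2 did not pass the test (limma, adjusted p under 0.05 over all genes). Hspb3, Cryab, Hspb1 and Hspb2 were lower, and Hspb8 was higher. Over all genes 5.81% were called, 3.42% lower and 2.39% higher in titled tooth germ. The members were bright, with 5 means above the upper quartile of all values. With genes below the median gene removed, 11.1% of the remaining genes were called, and the count of called members stayed at 5. The median log2 difference of the 7 members was -0.68, against 0.0026 over all genes. For 5 members the 3 values of one tissue did not overlap with the 3 of the other, which held for 23.1% of all genes (11.2% with tooth germ the lower), and these were the same 5 that were called. The same 5 had differences of one sign in all 3 pairs, as did 41.3% of all genes. With litter as a block, the same 4 were called lower and Hspb8 higher, where 8.88% of all genes were called and 5.02% were called lower.

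**Figure D1:**
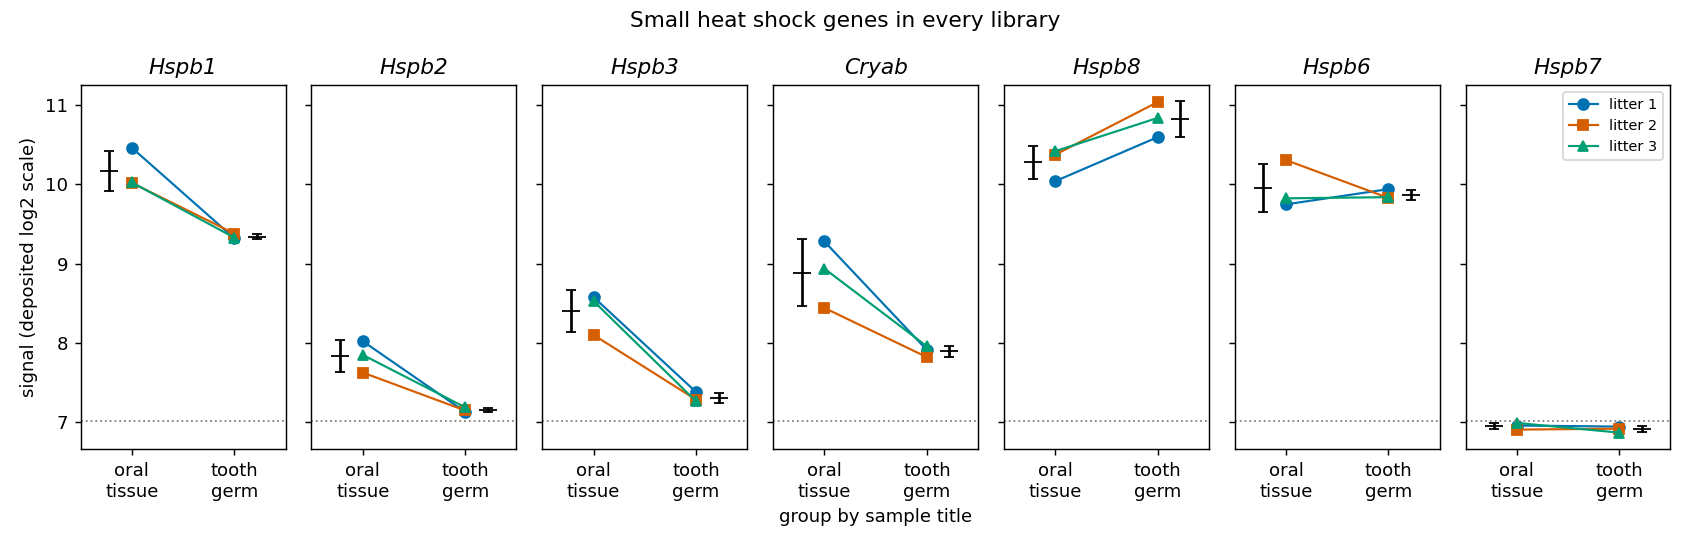
Signal of each small heat shock gene on the deposited log2 scale (vertical axis) in the libraries titled oral tissue and tooth germ, with lines joining libraries of the same litter, black bars for mean ± SD (n = 3) and a dotted line at the median of all values, 7.01. Hspb1, Hspb2, Hspb3 and Cryab fell and Hspb8 rose in all 3 pairs, Hspb6 overlapped and Hspb7 lay below the dotted line; levels are to be compared within a panel only.

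Promoter windows, taken from RefSeq (GRCm38.p6) as the 250 bases before an annotated start, matched 5 of the 7 members, with 6 windows because Hspb6 has 2 starts. No window was available for Hspb2 and Cryab, which both fell, so the motif counts of the members leave them out. Shown are the windows of Hspb1, the member best known as inducible by heat, of the member with the largest fall, Hspb3, and of the member that rose, Hspb8. Capitals mark matches to the heat shock element GAANNTTC, the paired form of the site that heat shock factors bind, which reads the same on both strands.
Hspb1 (chr5:135887669-135887918, plus strand): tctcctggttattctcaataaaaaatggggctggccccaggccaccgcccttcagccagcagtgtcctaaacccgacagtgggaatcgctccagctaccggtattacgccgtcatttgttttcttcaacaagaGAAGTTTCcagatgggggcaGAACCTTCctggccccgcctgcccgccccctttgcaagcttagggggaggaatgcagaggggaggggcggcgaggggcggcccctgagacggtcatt
Hspb3 (chr13:113663677-113663926, minus strand): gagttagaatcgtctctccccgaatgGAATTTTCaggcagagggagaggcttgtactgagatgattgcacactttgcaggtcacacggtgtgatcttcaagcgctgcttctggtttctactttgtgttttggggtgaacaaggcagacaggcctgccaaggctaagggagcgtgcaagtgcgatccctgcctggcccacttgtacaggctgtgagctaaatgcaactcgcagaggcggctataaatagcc
Hspb8 (chr5:116422865-116423114, minus strand): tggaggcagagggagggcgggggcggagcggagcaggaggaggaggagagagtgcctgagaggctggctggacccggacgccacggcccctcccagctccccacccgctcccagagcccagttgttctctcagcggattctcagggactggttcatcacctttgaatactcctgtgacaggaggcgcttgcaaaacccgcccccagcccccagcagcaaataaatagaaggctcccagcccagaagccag
The Hspb1 window held 2 matches, which began 117 and 97 bases before the start. The Hspb3 window held 1, which began 224 bases before the start. No match was present in the Hspb8 window, and 1 of the 2 Hspb6 windows held a match, so 3 of the 5 members had at least 1. Among all 32851 windows of this length 6.69% held the motif. On the array, 4.85% of the 1031 genes with the motif were called, against 5.45% of the 15237 genes with a window.

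The E-box CANNTG, the core site of basic helix-loop-helix factors including those of muscle, was present in the windows of Hspb1 (2 matches), Hspb3 (2), Hspb7 (1) and Hspb8 (1), and in 66.2% of all windows. Its form CAGCTG, held by 13% of all windows, and the CArG box, the site of serum response factor, held by 1.47%, were in none of the 6 windows of the members; the first is also an E-box. Of the array genes with each motif, 5.72% were called for the E-box, 8.1% for CAGCTG and 9.13% for the CArG box (21 of 230 genes). Among all genes with a window 5.45% were called, and these shares were not tested. Matches describe these letters only.

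Hspb3, a small heat shock protein made mainly in skeletal and cardiac muscle, had the largest fall of the family. It had signals of 8.58, 8.10 and 8.53 in the oral tissue libraries of litters 1 to 3 and 7.38, 7.29 and 7.27 in the tooth germ libraries. All 3 tooth germ values lay below the lowest oral tissue value, and oral tissue library 2 was the lowest of its group. The means were 8.40 ± 0.26 and 7.31 ± 0.062 (SD, n = 3), a log2 difference of -1.09 (SE 0.11, limma adjusted p = 1.07e-04) or 2.13-fold higher in titled oral tissue. The differences in the 3 pairs were -1.20, -0.82 and -1.26.

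Cryab, alpha-B crystallin, which stabilises desmin filaments, had signals of 9.28, 8.44 and 8.94 in the oral tissue libraries and 7.91, 7.82 and 7.96 in the tooth germ libraries. The oral tissue libraries spread far more than the tooth germ libraries, and library 2 was again the lowest of its group. Its log2 difference was -0.99 (SE 0.16, limma adjusted p = 0.0028), or 1.99-fold, with pair differences of -1.37, -0.62 and -0.98. The call was lost with robust shrinkage of the variances (adjusted p = 0.0522).

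Hspb2, which binds and activates the myotonic dystrophy kinase Dmpk, had signals of 8.02, 7.63 and 7.85 in the oral tissue libraries and 7.13, 7.15 and 7.19 in the tooth germ libraries. The tooth germ values lay close to the median of all values on the array, where a difference may be understated. The log2 difference was -0.68 (SE 0.086, limma adjusted p = 5.50e-04), or 1.60-fold higher in titled oral tissue. In the RefSeq gene table the span of Hspb2 on chromosome 9 lies inside that of Cryab, so the annotated spans overlap. The 2 genes are known as a divergent pair that share the sequence between their usual starts. Their pair differences had the same order, with litter 1 the farthest from 0 and litter 2 the nearest, at -0.89, -0.48 and -0.66 for Hspb2. That order is not particular to these genes, since Hspb1 on chromosome 5 and the medians of the skeletal muscle list (-1.85, -1.58 and -1.80) had it too.

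Hspb1, known as Hsp25 in mice, protects actin filaments and is phosphorylated by the kinases downstream of p38. It had signals of 10.46, 10.02 and 10.03 in the oral tissue libraries and 9.32, 9.38 and 9.33 in the tooth germ libraries. Oral tissue library 1 stood above the other two, and all 3 oral values lay above all 3 tooth germ values. This made a log2 difference of -0.83 (SE 0.11, limma adjusted p = 9.46e-04), or 1.77-fold, with pair differences of -1.14, -0.64 and -0.70. A second Hspb1 probe read between 6.78 and 6.86 on all 6 arrays, below the median of all values, with a difference of 0.021 that was not called. As the mean of both probes the log2 difference was -0.40 (adjusted p = 0.0075).

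Hspb8 was the member that went the other way. Its product, Hsp22, joins the co-chaperone Bag3 in a complex that passes damaged filamin and other clients to autophagy. It had signals of 10.04, 10.37 and 10.42 in the oral tissue libraries and 10.60, 11.04 and 10.84 in the tooth germ libraries. The groups did not overlap, though the lowest tooth germ library, that of litter 1, lay near the highest oral tissue library. The log2 difference was 0.55 (SE 0.13, limma adjusted p = 0.0256), or 1.46-fold higher in titled tooth germ, and the pairs differed by 0.56, 0.66 and 0.42. A second probe read 8.44, 8.69 and 8.26 in the tooth germ libraries, all above its highest oral tissue value of 8.01 (log2 difference 0.46, limma adjusted p = 0.0146 over all probes).

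The Hspb8 call depended on the fit. With litter as a block its adjusted p was 5.19e-04, and both libraries of litter 1 were the lowest of their groups. Without oral tissue library 1 it was 0.0934, without tooth germ library 2 it was 0.0944 and without tooth germ library 3 it was 0.0814, all in limma, with log2 differences of 0.43, 0.44 and 0.54.

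Hspb6, or Hsp20, a regulator of smooth muscle relaxation and a cardiac chaperone, did not pass the test. It had signals of 9.75, 10.31 and 9.82 in the oral tissue libraries and 9.94, 9.83 and 9.84 in the tooth germ libraries, so that the tooth germ values lay within the range of the oral tissue. Oral tissue library 2 was the highest, which is the library that was lowest for Hspb1, Hspb2, Hspb3 and Cryab. The log2 difference was -0.090 with a 95% interval of -0.37 to 0.19 (limma adjusted p = 0.801), and without that library it was 0.083. The interval holds none of the differences of the 4 members that fell.

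Hspb7, the cardiovascular small heat shock protein, which binds filamin C, had signals of 6.96, 6.91 and 6.99 in the oral tissue libraries and 6.95, 6.92 and 6.87 in the tooth germ libraries. It was the only member whose mean lay below the median of all values. Its log2 difference was -0.041 (95% interval -0.12 to 0.033, limma adjusted p = 0.612). At such a dim signal a small difference may not be detectable.

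The other genes named with the family were as dim. Cryaa, the alpha-A crystallin of the lens, Hspb9 and Odf1, both of the testis, and Hspb11, an intraflagellar transport protein that carries the family name, all had means below the median of all values. Of these 4 genes 0 were called by limma, 0 had an unadjusted p under 0.05, and 0 were called with litter as a block. Their log2 differences ran from -0.031 for Odf1 to 0.023 for Hspb9, with a median of -0.012.

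The proteins that small heat shock proteins bind, or that act on them, moved both ways. Of 9 such genes 1 was higher, 3 were lower and 5 were not called, with a median log2 difference of -0.13. With litter as a block 2 were higher and 4 were lower, the added calls being Mapkapk3, a kinase of Hspb1 (log2 difference 0.23, limma adjusted p = 0.0357 with the block), and Vim, the mesenchymal intermediate filament protein (-0.26, adjusted p = 0.0250 with the block). Des, the intermediate filament protein of muscle, had signals of 10.63, 9.87 and 10.26 in the oral tissue libraries and 8.63, 8.50 and 8.56 in the tooth germ libraries. Its log2 difference of -1.69 (SE 0.15, limma adjusted p = 4.42e-05) was the largest of the list. Flnc, filamin C of the Z-disc, fell by 1.17 (adjusted p = 1.56e-04), or by 0.59 as the mean of its probes, and Dmpk, the kinase bound by Hspb2, fell by 0.82 (adjusted p = 1.20e-04), or by 0.40 as the mean of its probes.

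Bag3, the partner of Hspb8, was the gene of this list that rose. It had signals of 11.15, 11.03 and 11.17 in the oral tissue libraries and 11.58, 11.50 and 11.44 in the tooth germ libraries, without overlap. Bag3 had a log2 difference of 0.39 (SE 0.078, limma adjusted p = 0.0105), or 1.31-fold. Without tooth germ library 1 the limma adjusted p was 0.0583, and without both libraries of litter 1 or of litter 2 it was 0.132 and 0.0895. Across litters Bag3 and Hspb8 did not rank alike, since Bag3 was highest in tooth germ library 1, where Hspb8 was lowest of that group.

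**Figure D2:**
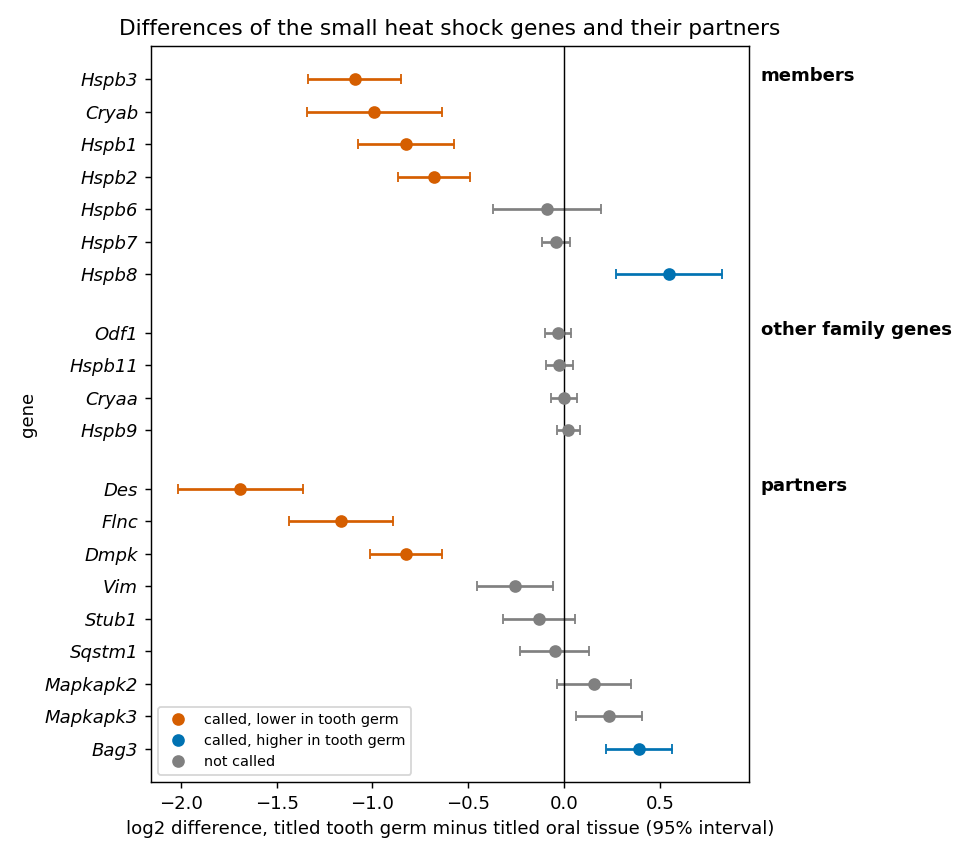
Log2 difference of titled tooth germ minus titled oral tissue (horizontal axis) with its 95% interval for the 7 members, 4 other genes named with the family and 9 partners (vertical axis), coloured by the limma call. Hspb3, Cryab, Hspb1, Hspb2, Des, Flnc and Dmpk were called and lie to the left of 0, and Hspb8 and Bag3 were called and lie to the right; the intervals of Vim and Mapkapk3, which were not called, also leave out 0.

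Heat shock factors and the chaperones driven by ATP, the cytosolic and organelle Hsp70, Hsp90 and Hsp60 systems, were mostly not called. Of 20 measured genes 1 was higher, 0 were lower and 19 were not called by limma, and 2 had an unadjusted p under 0.05. Over all genes 5.81% were called. Of the list 3 genes had means below the median of all values, 7.01. Among the dim genes were Hspa1a, Hspa1b and Hsf4, with means of 7.27, 7.05 and 6.92, where a small difference may not be detectable. Hsf1 and Hsp90ab1 were not measured, so of the heat shock factors only Hsf2 and Hsf4 were read. The median log2 difference was -0.010. The gene that rose was Hspa2, an Hsp70 known best from germ cells, at 8.59 ± 0.11 in titled oral tissue and 9.04 ± 0.072 in titled tooth germ (SD, n = 3). Its log2 difference was 0.44 (limma adjusted p = 0.0068), or 0.34 as the mean of its probes.

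Markers of other cell types were read beside the members. Of 22 measured skeletal muscle genes 20 were lower in titled tooth germ and 2 were not called, with a median log2 difference of -1.70, and the 2 largest falls were those of Actc1 and Mylpf (-2.52 and -2.05). The mean level of the list was 10.84, 10.26 and 10.69 in the oral tissue libraries and 9.19, 8.94 and 9.05 in the tooth germ libraries, and 1 member lay below the median of all values. All 4 members that fell had smaller differences than the median of this list. In these bulk libraries, fewer cells of a type and less RNA per cell cannot be told apart, and the part of muscle content in the falls of Hspb1, Hspb2, Hspb3 and Cryab was not tested.

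Within titled oral tissue the muscle list deviated from its group mean by 0.25, -0.34 and 0.089 in libraries 1 to 3. Cryab deviated by 0.39, -0.45 and 0.051, Hspb3 by 0.18, -0.30 and 0.13, and Hspb2 by 0.19, -0.21 and 0.016, so that library 1 was highest and library 2 lowest for the list and for these 3 genes. Hspb1 deviated by 0.29, -0.15 and -0.14, with libraries 2 and 3 nearly equal. Hspb8 lay below its group mean in library 1, at -0.24, and above it in the other two, at 0.097 and 0.14. Other lists had the same order of oral tissue libraries, the neuronal list at 0.31, -0.21 and -0.099 and the heat shock factors and chaperones driven by ATP at 0.065, -0.054 and -0.011 in libraries 1, 2 and 3, though there library 3 also lay below the mean. The dental mesenchyme list was lowest in library 1, as Hspb8 was, at -0.25 against 0.21 and 0.043. So was the surface epithelium list, at -0.073 against 0.056 and 0.017. In titled tooth germ Hspb8 (-0.23, 0.21 and 0.014) and the epithelium list (-0.060, 0.0097 and 0.051) were lowest in library 1. The dental mesenchyme list (0.034, 0.11 and -0.15) was lowest in library 3 there. In titled tooth germ the muscle list deviated by 0.13, -0.12 and -0.013 in libraries 1 to 3, an order that none of the members that fell had. Hspb3 (0.071, -0.025 and -0.046) was highest in library 1 but lowest in library 3. Cryab (0.015, -0.076 and 0.061) was lowest in library 2 but highest in library 3. Hspb2 (-0.026, -0.0070 and 0.033) and Hspb1 (-0.023, 0.037 and -0.014) were lowest in library 1. With 3 libraries these are values and no test.

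**Figure D3:**
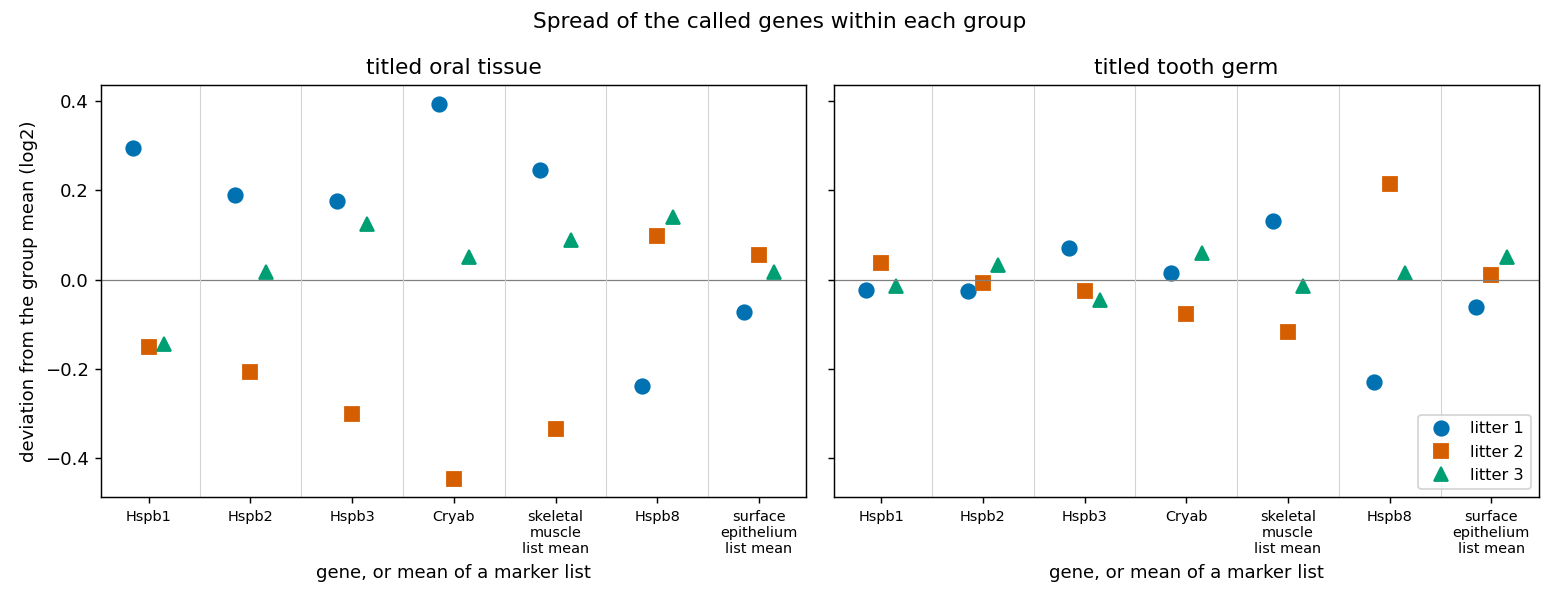
Deviation of each library from its group mean on the log2 scale (vertical axis) for the 5 called members and for the means of the skeletal muscle and surface epithelium lists (horizontal axis), with 1 symbol per litter. In titled oral tissue Hspb2, Hspb3, Cryab and the muscle list are highest in litter 1 and lowest in litter 2, while Hspb8 is lowest in litter 1. In titled tooth germ the deviations of the 4 members that fell lie between -0.076 and 0.071, and none has the order of the muscle list.

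Of 8 smooth muscle genes 2 were lower and 6 were not called (median -0.14), with Acta2, which embryonic skeletal muscle also makes, at -1.49 and Myh11 at -0.21, and 3 were lower with litter as a block. As the mean of its probes Acta2 stood at -1.04 and stayed called. Myh11 stood at -0.096 by the same rule and was not called (limma adjusted p = 0.151). The call of Myh11 was also lost without tooth germ library 1 (0.0791) or 3 (0.0537). Of 9 neuronal genes 3 were lower and 6 were not called (median -0.35), with 5 lower when litter was a block. The largest falls were those of Isl1 and Nefm (-1.45 and -1.19), with Nefm at -0.84 as the mean of its probes. The mean level of the neuronal list was highest in oral tissue library 1, at 8.26 against 7.73 and 7.84, with 4 genes below the median of all values. Surface epithelium and dental mesenchyme were both higher where Hspb8 was higher, and the median of the dental mesenchyme list was 0.66. Of 11 measured surface epithelium genes 6 were higher, 1 was lower and 4 were not called (median 0.43), with the keratin Krt17 at 2.05 and the epithelial master factor Trp63 at 1.01, or at 0.53 as the mean of its probes. The mean level of the epithelium list was 9.71, 9.83 and 9.80 in the oral tissue libraries and 10.20, 10.27 and 10.31 in the tooth germ libraries, and 2 of its genes lay below the median of all values. The parts of smooth muscle, nerve, epithelium and dental mesenchyme in the members' differences were not tested.

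For each called member the 3 genes with the nearest profile over the 6 arrays were taken, after each profile was centred on its own mean, by the root mean square difference. Hspb3 lay nearest to Tubb6, a tubulin, Srl, a calcium-binding protein of the sarcoplasmic reticulum, and Trim72, a protein of muscle membrane repair (0.068, 0.071 and 0.072 log2 units). Cryab lay nearest to Myo18b, an unconventional myosin, Myoz2, a Z-disc protein, and Sypl2, a protein of the muscle triad (0.078, 0.086 and 0.097). Hspb2 lay nearest to Pitx3, a homeobox gene, at 0.026, and then to Gpr85 and Popdc2 (0.044 and 0.049). Hspb1 lay nearest to Mymk, the fusion protein of myoblasts, Twist2, a mesenchymal transcription factor, and Rb1, the retinoblastoma gene (0.064, 0.067 and 0.071). Hspb8 lay nearest to Tmem238, Lad1, a protein of epithelial anchoring filaments, and C9orf72 (0.070, 0.088 and 0.089). Each profile is that of the brightest probe. As the mean of its probes the log2 difference went from -0.64 to -0.28 for Gpr85 and from -0.91 to -0.29 for Sypl2. It went from -1.09 to -0.52 for Srl, from -1.06 to -0.52 for Myo18b and from -0.98 to -0.51 for Myoz2. The other genes named here changed less. These distances describe 6 arrays and carry no test.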

How the data were processed

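The deposited table holds log2-scale signals per probe for 6 arrays, prepared by the authors with lumi 2.8.0 per the submitters' processing notes. Its transformation and background correction are not given in the sources used here, so folds of dim genes may be understated. The sorted columns differed by at most 8.27e-04, that is, the authors' values were already quantile normalized, and they were used as deposited. Of 45281 probes 34885 had 1 gene symbol in the platform annotation, and the brightest probe per gene left 19057 genes.

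The test was that of limma 3.58.1 (R 4.3.3, lmFit, eBayes with a trend, 4 residual degrees of freedom) and Benjamini-Hochberg adjustment over all genes. The fit was tested on simulated data, with changes placed in genes above the median gene. Of log2 changes of 0.5, 1 and 2, it recovered 68.7%, 97% and 97%, and 5.91% of calls were false. The simulated noise was normal and independent between arrays, without a shared litter. Labels give same-numbered libraries a shared litter. Their deviations correlated at 0.41, 0.23 and 0.27, against -0.27 to -0.072 for libraries of unlike number. The fit without the block is the main one. The SEs, 95% intervals and adjusted p-values given without mention of the block therefore leave out the pairing. For Hspb8 the SE was 0.13 without the block and 0.074 with it.

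The members, lists and naming rules were chosen with earlier results of these data known. All members were named, up to 3 called genes of each partner or chaperone list by size together with Bag3 and the 4 other family genes, and 2 of each marker list. Alternatives were litter as a block, other normalizations, probe rules, variance models and thresholds, and leaving out libraries; leaving out whole litters was added after seeing the data. Protein sequences were not used here.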

Additional observations from a re-analysis of the deposited data

How the results depend on the processing

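The counts of called genes and members and the differences of the genes named by rule were recomputed under 18 alternatives, 17 for dim genes removed by the filter on low signals; lists were recomputed with the litter block only, and second probes, deviations, profile distances and motif shares under none. The calls of Hspb1, Hspb2 and Hspb3 held under all of theirs, with differences of -0.92 to -0.40, -0.78 to -0.57 and -1.24 to -1.004. Cryab lost its call under 1 (adjusted p = 0.0522) and Hspb8 under 7, among them eBayes without a trend (0.0844) and leaving out litter 2 (0.102) or litter 3 (0.0904). The count of called members stayed between 4 and 5 when libraries or litters were left out. Bag3 lost its call under 4 of 18 and Hspa2 under 2, Myh11 under 6 of 17, Isl1 under 2 of 18, Tmem238 under 11, C9orf72 under 5 and Myoz2 under 1; the cause was not tested.

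Over all genes 1107 were called, 1693 with litter as a replicate block and 601 at an adjusted p under 0.01. Leaving out each library in turn gave 734 to 1025, with the lowest count without tooth germ library 2, and leaving out litter 1 or litter 3 gave 549 and 668. The block changed the call of no member; it changed counts of the partner, neuronal, smooth muscle and dental mesenchyme lists, as given with them.

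Signs turned only for genes that were not called. Hspb6 ranged from -0.23 to 0.10, at 0.083 without oral tissue library 2 and at 0.10 without litter 2. Hspb11 ranged from -0.069 to 0.018, at 0.017 and 0.018 under these settings. Cryaa ranged from -0.015 to 0.011, at 8.42e-04 with array weights, at 0.011 without oral tissue library 2, at 0.0025 and 0.011 without tooth germ libraries 1 and 3, and at 0.0063 without litter 3. Array signals give no count, so dim genes have no stated detection limit here.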
